A study of Mus musculus with 6 samples.

Results

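Cytosolic ribosomal protein genes encode the proteins that, with the ribosomal RNAs, build the cytosolic ribosome. Their transcripts were measured in J774A.1, an established macrophage line from Balb/c mice. Members were chosen by gene symbol alone: features paired with a single symbol that begins with Rpl, Rplp or Rps and ends in a number with an optional a, x, y or l. Where several features named a gene, the brightest was kept. This gave 63 genes, 40 of the large subunit and 23 of the small subunit, among the 22180 genes measured. RefSeq lists 2 of them, Rpl6l and Rps4l, as pseudogenes. Of the 81 protein-coding RefSeq symbols that fit the same pattern, 61 had a feature of their own; 13 others were present only on features shared with other symbols, and 7 were not analysed here.

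The 3 NPFF samples came from cells given neuropeptide FF, an amidated peptide of the RF-amide family, at 1 nM in phosphate-buffered saline (PBS) for 18 h. The 3 control samples received PBS alone for 18 h; their titles call them non-treated. RPMI-1640 supplemented with fetal calf serum was the medium of both groups, and total RNA was hybridised to Affymetrix whole-transcript arrays, a sample to an array. Titles name the samples biological replicates without saying whether they came from separate culture days, so p-values here speak only to the variation among these 6 samples, which may be technical.

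In the ribosome, the small subunit reads the messenger RNA at the decoding centre, and the large subunit joins amino acids and feeds the growing chain into an exit tunnel. Mammalian ribosomal protein messengers mostly begin with a terminal oligopyrimidine (TOP) tract, a C followed by a run of C and T, through which the kinase mTORC1 and the RNA-binding protein Larp1 control their translation as a class. A change in their use can therefore occur at the level of translation, which transcript arrays do not record. The genes are also known for their many processed pseudogenes, so a feature can collect signal from near-identical copies, and single-gene values here are uncertain to that extent.

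The starts of 8 members are given here because the TOP tract is the feature that makes the family a regulated class. Rps23, Rps12, Rps26 and Rpl10a are among the 7 members whose groups did not overlap. Rps6 and Rpl28 are the brightest, and Rpl14 and Rpl15 are further examples of a tract at the start. All 8 show a tract of these letters within 10 bases of the annotated start on either side, as did 32 of 57 member promoters. Rpl26, whose groups also did not overlap, has a listed promoter without a tract there. Each line runs 5′ to 3′ from 40 bases before the annotated transcript start to 15 bases from it onward, taken from RefSeq promoters of build GRCm38.p6. Capitals begin at the C closest to the annotated start that is followed by at least 4 letters, each C or T, and go on to the end of that pyrimidine run; lower-case pyrimidines can precede them. In Rps6, Rpl14, Rpl15 and Rpl28 this C is the annotated first base. In Rps23, Rps12, Rps26 and Rpl10a it lies 3, 8 and 4 bases after and 7 bases before the start, in that order. The marked run of Rpl10a ends before the annotated start, and Rpl10a has a second listed promoter without a tract nearby. Whether runs away from the annotated start act as TOP tracts was not tested.
Rps6, chr4:86857353-86857407, minus strand: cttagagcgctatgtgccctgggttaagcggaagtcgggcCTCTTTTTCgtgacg
Rpl14, chr9:120571477-120571531, plus strand: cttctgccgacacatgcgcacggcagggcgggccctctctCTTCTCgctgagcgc
Rpl15, chr14:18270972-18271026, minus strand: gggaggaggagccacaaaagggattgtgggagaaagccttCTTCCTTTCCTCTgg
Rpl28, chr7:4792925-4792979, plus strand: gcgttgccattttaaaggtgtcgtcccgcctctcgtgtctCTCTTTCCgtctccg
Rps23, chr13:90923082-90923136, plus strand: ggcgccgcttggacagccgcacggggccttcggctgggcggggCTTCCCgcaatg
Rps12, chr10:23787195-23787249, minus strand: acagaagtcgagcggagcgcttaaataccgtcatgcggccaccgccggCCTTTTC
Rps26, chr10:128626492-128626546, minus strand: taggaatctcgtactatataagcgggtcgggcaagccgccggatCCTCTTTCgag
Rpl10a, chr17:28328431-28328485, plus strand: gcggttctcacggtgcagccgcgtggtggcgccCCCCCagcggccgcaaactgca

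RefSeq promoters of 300 bases, 250 before the start and 50 from it onward, were found for 48 of the 63 members, 57 promoters in all. A C followed by 4 letters that are each C or T stood exactly at the start of 11 of these 57, or 19.3%, against 2.48% of the 32794 promoters of other genes. Within 10 bases of the start on either side, the same tract was found in 56.1% of member promoters and 30.7% of the others; these counts include the exact ones. The letters CCGGAAG of the ETS box, which the GABPA factor binds, were found on either strand in 36.8% of member promoters against 8.81% of the others. The SP1 box GGGCGG was found in 47.4% and 35.6%, and the YY1 box AAGATGG in 10.5% and 6.33%. CCAAT was found in 24.6% of member promoters and 37.4% of the others, and TATAA in 24.6% and 24.9%. Both strands were searched for these boxes, and no box contains another. Start tracts and ETS letters were thus more frequent in member promoters, which describes sequence and says nothing of binding in these cells.

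**Figure D1:**
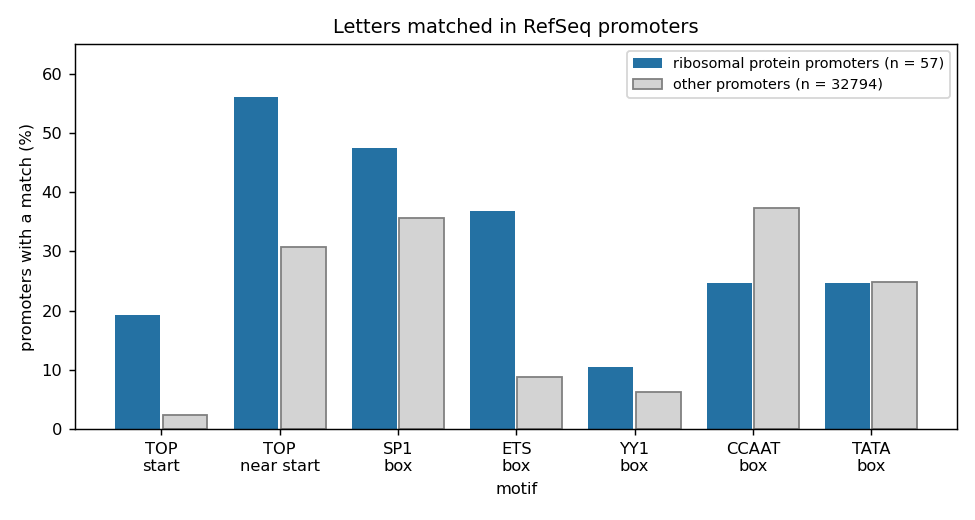
Share of promoters (vertical axis, %) that hold each motif, for ribosomal protein promoters (blue, n = 57) and the promoters of other genes (grey, n = 32794). The tall differences are the ETS box (36.8% against 8.81%), the TOP tract within 10 bases of the start (56.1% against 30.7%) and the TOP tract exactly at the start (19.3% against 2.48%).

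Values below are log2 intensities, quantile-normalized over all features of the 6 arrays, and a difference is NPFF minus control on that log2 scale. Signal depends on a feature's probes, so ranks of signal between genes or lists are given as rough descriptions of the arrays and not as relative amounts of RNA. The 10 macrophage markers, Adgre1, Cd68 and Lyz2 among them, lay at a median signal percentile of 96.5 among all genes, against 37.4, 24.0 and 41.2 for fibroblast, lymphocyte, and epithelial and endothelial markers. Mean levels of the macrophage markers were 10.65 to 10.74 on NPFF arrays and 10.46 to 10.75 on control arrays. Those of the fibroblast, lymphocyte, and epithelial and endothelial markers were 6.09 to 6.17, 5.85 to 5.98 and 6.17 to 6.25 on NPFF arrays, against 6.01 to 6.13, 5.90 to 5.95 and 6.10 to 6.24 on control arrays. The part of other cells in the results below was not tested. Interquartile ranges of the deposited values were 2.31 to 2.33 on the 3 NPFF arrays, against 2.04, 2.41 and 2.38 on controls 1, 2 and 3, so control 1 stood apart from the other arrays. Differences that control 1 moved most are therefore also given without it.

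Most ribosomal protein transcripts were slightly higher in NPFF cells than in control cells, and none passed the test. Of the 63 genes, 48 had a positive difference, or 76.2%, beside 51.7% of all 22180 genes. The difference was positive in 57.7% of the 10067 other genes at or above the members' lower quartile of signal, with a median of 0.03. The median difference was 0.06 over the members and 0.00 over all genes, and the members' differences ran from -0.21 for Rps18 to 0.61 for Rpl3. By limma with Benjamini-Hochberg adjustment over all genes, 0 of 63 members and 0 of 22180 genes (0%) had an adjusted p under 0.05, and the members' adjusted p lay between 0.9996 and 0.9998. At an unadjusted p under 0.05 there were 2 members, Rps23 and Rps12, or 3.17%, beside 2.51% of all genes. Both were higher in NPFF, as were 0.834% of all genes at that p, while 1.67% were lower. The spread was narrower in the NPFF group, with a median SD of 0.06 per member, against 0.18 in the control group; over all genes these were 0.07 and 0.14.

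The number of positive differences depended on control 1. Without control 1, 29 of 63 members (46%) were higher in NPFF and the median difference was -0.01, while 39.1% of all genes were higher and their median was -0.02. Against control 3 alone, 23 of 63 were higher and the median was -0.03, with 48.0% of all genes higher. Control 1 was the lowest of the 6 arrays for 40 members, or 63.5%; it was also the lowest for 48.9% of all genes. Among the 10067 other genes at or above the members' lower quartile of signal, it was the lowest for 56.8%. Relative to the mean of controls 2 and 3, control 1 was shifted by -0.21 in the median member, by -0.19 in the median gene at or above that signal and by -0.11 in the median of all genes. So a low control 1 was shared with other genes at or above that signal. Within the members, the median shift was -0.29, -0.18 and -0.11 in the dimmest, middle and brightest 21, so it was smallest in the brightest. What part of the members' shift was shared with other genes was not tested.

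**Figure D2:**
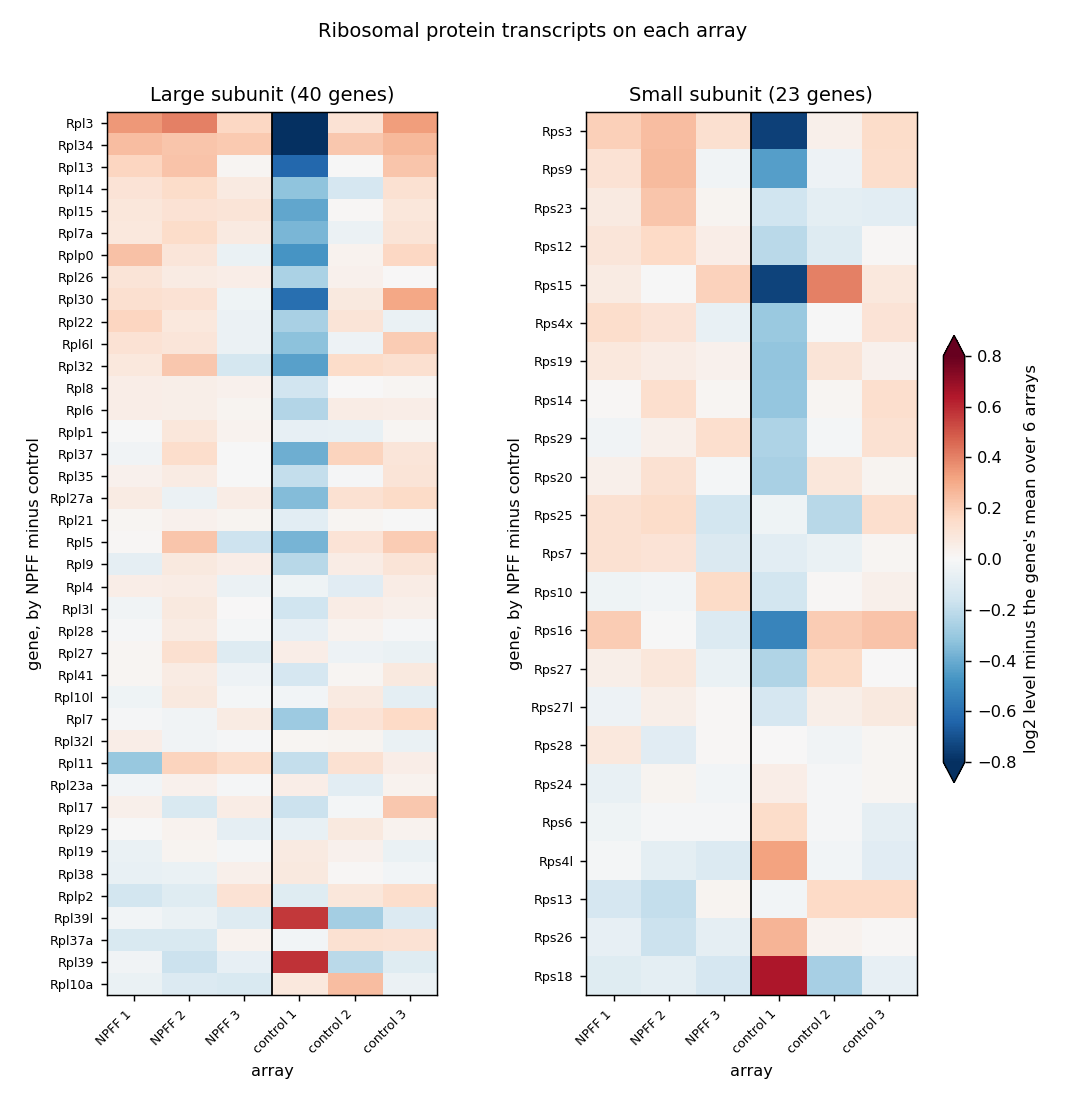
Each row is a ribosomal protein gene and each column an array, coloured by its log2 level minus that gene's mean over the 6 arrays; rows are sorted by NPFF minus control, and colours end at -0.8 and 0.8. Control 1 carries most of the dark cells, low for Rpl3, Rpl34, Rps3 and Rps15 and high for Rps18, Rpl39 and Rpl39l, while the 3 NPFF arrays are pale.

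Set against each control in turn, the mean of the 3 NPFF arrays gave 3 different pictures. Minus control 1, the median member was at 0.20, with 47 of 63 above 0 and a range of -0.75 to 1.67. Minus control 2, the median was 0.00, with 31 above 0 and a range of -0.34 to 0.26. Minus control 3, the median was -0.03, with 23 above 0 and a range of -0.26 to 0.19. The distribution thus narrowed and its middle moved from above 0 to just below it, depending on the control subtracted. All genes had medians of 0.07, -0.04 and 0.00 against controls 1, 2 and 3. With NPFF and control arrays of the same replicate number subtracted, the medians over members were 0.21, 0.03 and -0.05 for numbers 1, 2 and 3, and 46, 40 and 19 members were above 0. The NPFF mean lay above every control for 10 members (15.9%, beside 11.9% of all genes) and below every control for 6 (9.52%, beside 13.2%).

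**Figure D3:**
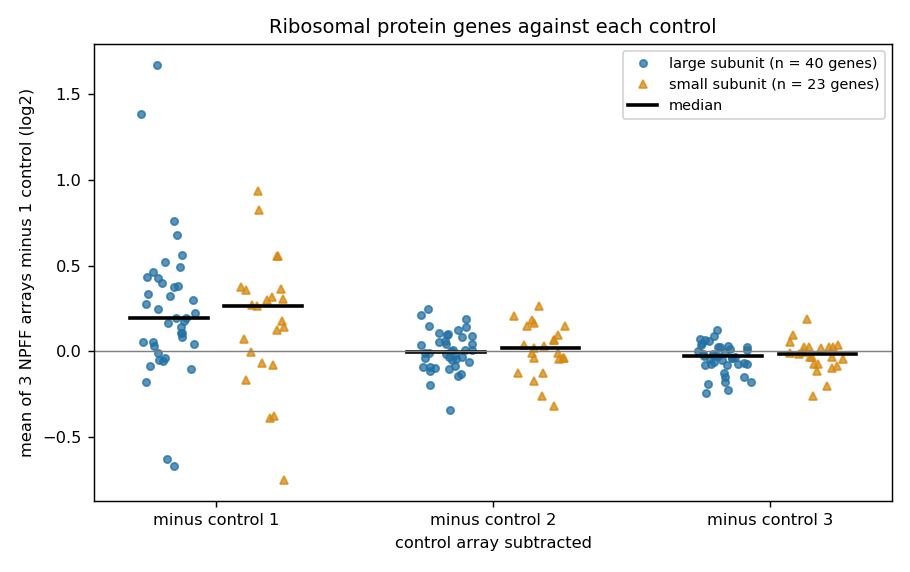
Mean of the 3 NPFF arrays minus a single control (vertical axis, log2) for the 40 large-subunit genes (blue circles) and 23 small-subunit genes (orange triangles), with black bars at the medians. Values spread from -0.75 to 1.67 against control 1 and lie within -0.34 to 0.26 against controls 2 and 3.

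Both subunits had small positive medians. The median difference was 0.04 for the large subunit, where 31 of 40 genes were higher in NPFF, and 0.08 for the small subunit, where 17 of 23 were higher. Minus controls 1, 2 and 3, the large subunit had medians of 0.20, -0.01 and -0.03 and the small subunit 0.26, 0.02 and -0.02. The mean level of the large subunit minus that of the small subunit was 0.70, 0.72 and 0.71 on the NPFF arrays, against 0.64, 0.72 and 0.73 on the control arrays. These averaged 0.71 ± 0.01 in NPFF and 0.70 ± 0.05 in control (SD, n = 3 each), so the group difference of 0.01 was smaller than the spread between control arrays. It was -0.01 without control 1, and -0.01 when all features of a gene were averaged. A contrast within each array removes any shift common to both subunits; it was not tested.

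**Figure D4:**
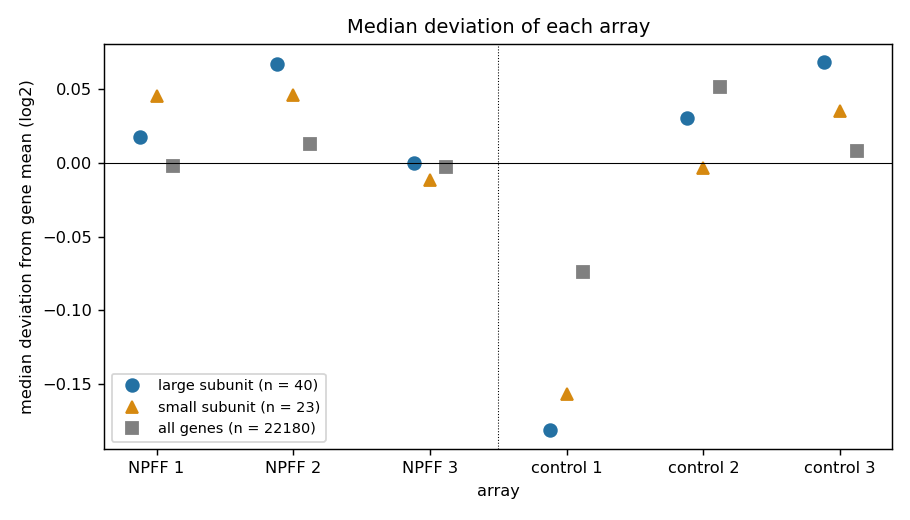
Median log2 deviation of each array from the gene means, for large-subunit genes (blue circles, n = 40), small-subunit genes (orange triangles, n = 23) and all genes (grey squares, n = 22180). Both subunits sit together on each array, near -0.18 and -0.16 on control 1 and between -0.01 and 0.07 on the other 5 arrays.

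The groups did not overlap for 7 members, 11.1% beside 8.58% of all genes. Of these, 5 were higher in NPFF (7.94%, beside 3.67% of all genes) and 2 were lower (3.17%, beside 4.92%). Rps23 had the smallest p of the family; its protein sits at the decoding centre, where a conserved loop contacts the codon and its transfer RNA. It stood at 7.71, 7.86 and 7.65 on the NPFF arrays and at 7.48, 7.56 and 7.55 on the control arrays. Every NPFF array was above every control, and the 3 controls lay close together, control 1 included. The means were 7.74 ± 0.11 in NPFF and 7.53 ± 0.04 in control (SD, n = 3 each), a difference of 0.21 (SE 0.08), or 1.16-fold, with an adjusted p of 0.9996 by limma.

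Rps12, a small-subunit protein of the head region, was measured on 8 features, more than any other member. Its brightest feature read 10.42, 10.48 and 10.37 on the NPFF arrays, against 10.11, 10.22 and 10.33 on the control arrays. The lowest NPFF value exceeded the highest control by little, since control 3 was close to NPFF 3. The difference was 0.205 (SE 0.08), and it was 0.15 without control 1. All 8 features pointed the same way, with differences of 0.16 to 0.21, but features of a gene can share probes or target sequence and are not replicates. Only the brightest separated the groups, and on each of the others NPFF 3 lay below control 3. The next brightest read 9.97 on NPFF 3 and 10.01 on control 3, and its difference without control 1 was 0.10.

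The other members that were higher without overlap belong to the large subunit, and their margins over controls 2 and 3 were small. Rpl26, which lies near the tunnel exit and in human cells is known to bind p53 messenger RNA, had 6.98, 6.94 and 6.93 in NPFF, against 6.63, 6.91 and 6.88 in control. Its difference of 0.14 (SE 0.09) was 0.05 without control 1. Rpl8, a protein close to the peptidyl transferase centre, had 11.52, 11.51 and 11.50 in NPFF, against 11.31, 11.47 and 11.48 in control. The 3 NPFF values were nearly equal and control 1 was the low one; the difference of 0.09 (SE 0.07) was 0.04 without it. Rpl21 had 13.38, 13.39 and 13.38 in NPFF and 13.28, 13.37 and 13.36 in control, a difference of 0.05 (SE 0.06) that was 0.02 without control 1. The next brightest feature of Rpl21, at nearly the same level, differed by 0.03, and its groups overlapped.

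Both members that were lower without overlap have distinct places on the ribosome. Rps26 lines the channel through which messenger RNA leaves the small subunit. It read 12.70, 12.59 and 12.69 on the NPFF arrays, against 13.03, 12.79 and 12.77 on the control arrays. Here control 1 was the highest array, and the difference of -0.21 (SE 0.09) was -0.12 without it. A second, much dimmer feature of Rps26 differed by -0.03 with overlapping groups, and control 1 was the lowest array on it. Rpl10a forms the L1 stalk, which helps spent transfer RNA leave. It read 11.71, 11.65 and 11.64 in NPFF, against 11.84, 12.004 and 11.72 in control, where control 2 was the highest and control 3 lay next to the NPFF arrays. Its difference was -0.19 (SE 0.09), and -0.12 without control 2.

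Rps13, a small-subunit protein bound early in assembly, had the third smallest p of the family, although its groups overlapped. Its values were 10.22, 10.16 and 10.37 in NPFF and 10.33, 10.51 and 10.51 in control, so NPFF 3 was above control 1. The difference was -0.20 (SE 0.09). Rpl37a had a difference of -0.15 (SE 0.08), with 7.14, 7.14 and 7.29 in NPFF and 7.24, 7.38 and 7.38 in control. Without control 1 the differences were -0.26 for Rps13 and -0.19 for Rpl37a, so both lay further from 0 than with it.

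**Figure D5:**
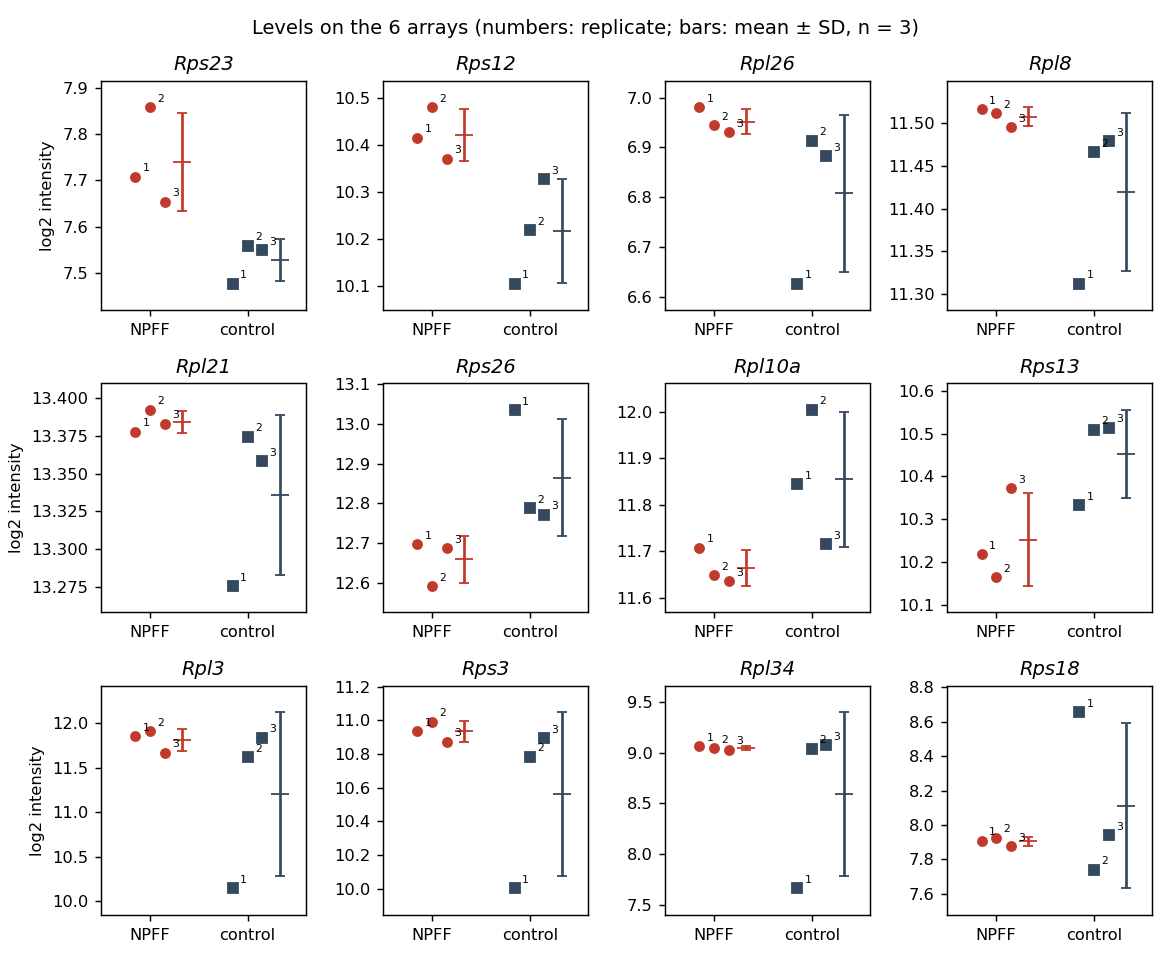
Log2 intensity (vertical axis, its own scale in each panel) of 12 members on the 3 NPFF arrays (red circles) and 3 control arrays (dark squares), with replicate numbers and the mean ± SD (n = 3) beside each group. The first 7 panels show groups that do not overlap; in Rpl3, Rps3, Rpl34 and Rps18 control 1 alone lies far from the other 5 arrays.

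The differences of largest size coincided with a single low value on control 1. Rpl3, an early-assembling protein near the peptidyl transferase centre, read 11.85, 11.91 and 11.67 on the NPFF arrays, against 10.14, 11.62 and 11.84 on the control arrays. Control 1 lay 1.59 below the mean of controls 2 and 3, and the other 5 arrays overlapped. The group means were 11.81 ± 0.12 in NPFF and 11.20 ± 0.92 in control (SD, n = 3 each), a difference of 0.61 (SE 0.43) that was 0.08 without control 1. The other features of Rpl3 did not share the low value: the next brightest stood at 9.18, 9.24 and 8.90 in NPFF and 8.95, 9.06 and 9.11 in control, with a difference of 0.06.

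Rpl34, a large-subunit protein, showed the same array pattern, with 9.06, 9.04 and 9.03 in NPFF and 7.66, 9.04 and 9.08 in control. Its SD was 0.02 in NPFF and 0.80 in control, and the difference of 0.45 (SE 0.37) was -0.01 without control 1. Rps3, which guards the messenger RNA entry channel and also takes part in DNA repair, had 10.94, 10.99 and 10.87 in NPFF and 10.00, 10.79 and 10.89 in control. Its difference of 0.37 (SE 0.23) was 0.09 without control 1. In all, control 1 lay at least 0.5 below the mean of controls 2 and 3 for 11 of 63 members (17.5%, beside 11.2% of all genes), Rps15, Rpl30, Rps16 and Rpl13 among them. It lay at least 0.5 above that mean for 3 members (4.76%, beside 5.88% of all genes), which were Rps18, Rpl39l and Rpl39.

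Rps18, a small-subunit head protein, had 7.91, 7.93 and 7.88 in NPFF and 8.65, 7.74 and 7.94 in control. Its brightest feature was high on control 1 while its dimmest, at 5.72, 5.86 and 5.71 in NPFF and 5.18, 5.87 and 5.78 in control, was low there. Rpl13 showed the same disagreement in reverse order of brightness. Its brightest feature read 9.64, 9.70 and 9.48 in NPFF and 8.84, 9.46 and 9.69 in control, and its other feature 7.57, 7.54 and 7.45 in NPFF and 8.86, 7.60 and 7.51 in control. Control 1 was thus 0.73 below the mean of controls 2 and 3 on the first and 1.30 above it on the second, so features of the same gene stood on opposite sides on that array.

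Across the 23 members with several features, the differences of all features shared a sign in 11, and in 5 members the features were more than 0.3 apart. The 39 further features had a median difference of 0.06, with 26 higher in NPFF, and a median of -0.01 without control 1. A further 57 features carry a ribosomal protein symbol together with other symbols and name no gene here; 31 were higher in NPFF and their median was 0.01. The 15 features of named ribosomal protein pseudogenes had a median of -0.04, with 7 higher. Over all 33794 features, 16267 were higher and the median was 0.00.

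The P stalk, made of Rplp0, Rplp1 and Rplp2, recruits the elongation factors to the large subunit. Its members had differences of both signs. Rplp0 had 11.23, 11.08 and 10.93 in NPFF and 10.52, 11.02 and 11.16 in control, a difference of 0.18 (SE 0.18) that was -0.01 without control 1. Rplp1 had 11.89, 11.97 and 11.91 in NPFF and 11.82, 11.82 and 11.90 in control, a difference of 0.08 (SE 0.06). Rplp2 differed by -0.08 (SE 0.10), by -0.16 without control 1 and by -0.16 without NPFF 3. On Rplp1 the groups were close but NPFF 1 did not clear control 3, and its second, dimmer feature differed by -0.12.

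Rpl5 and Rpl11 form a particle with 5S ribosomal RNA that can bind the p53 inhibitor MDM2 when ribosome assembly is disturbed. Rpl5 had 6.34, 6.55 and 6.17 in NPFF and 5.96, 6.44 and 6.53 in control, and Rpl11 had 6.54, 7.02 and 6.99 in NPFF and 6.66, 6.97 and 6.90 in control. Both pairs of groups overlapped, with differences of 0.04 (SE 0.17) and 0.01 (SE 0.15) that became -0.13 and -0.08 without control 1. Of the proteins that line the exit tunnel, Rpl4 differed by 0.04 (SE 0.07), Rpl17 by -0.02 (SE 0.11), or -0.11 without control 1, and Rpl39 by -0.18 (SE 0.20). Rpl39 had 8.23, 8.08 and 8.19 in NPFF and 8.84, 8.05 and 8.16 in control, and without the high control 1 the difference was 0.06.

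Rps6, the small-subunit protein that S6 kinases phosphorylate downstream of mTORC1, was the brightest member. It read 13.75, 13.77 and 13.77 on the NPFF arrays, against 13.93, 13.77 and 13.71 on the control arrays, a difference of -0.04 (SE 0.08) that was 0.02 without control 1. The transcript level says nothing of the protein's phosphorylation. Rpl28 and Rpl21 followed in brightness, and Rpl28 differed by 0.03 (SE 0.06). The 21 brightest members had a median control SD of 0.11, against 0.18 and 0.19 in the middle and dimmest 21; whether the brightest features approach saturation was not tested.

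Several members are copies of other ribosomal protein genes with restricted expression. Rpl10l and Rpl39l are known mainly from testis and Rpl3l from heart and skeletal muscle. Rpl32l, Rpl10l and Rpl3l were the dimmest members, at mean levels of 4.83, 4.92 and 5.59 over the 6 arrays, where the lowest of all genes was 4.63. Their differences were 0.01 (SE 0.06), 0.02 (SE 0.07) and 0.04 (SE 0.08), and at such signal little could be detected. Rpl39l read 6.97, 6.94 and 6.88 in NPFF and 7.55, 6.71 and 6.88 in control, high on control 1 as its parent Rpl39 was; cross-hybridisation between the copies was not tested. Rps27l, a copy induced by p53 in human cells, differed by 0.01 (SE 0.08), and its parent Rps27 by 0.06 (SE 0.11); without control 1 these were -0.06 and -0.05. Rps4l differed by -0.14 (SE 0.12), and by -0.01 without control 1, while the X-linked parent Rps4x differed by 0.13 (SE 0.12), and by 0.01 without control 1.

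Mutations of some ribosomal protein genes cause Diamond-Blackfan anaemia in humans. Of the 9 such genes listed, 7 were measured, 5 with a higher and 2 with a lower mean in NPFF, and none passed the test. Their median difference was 0.04, and -0.02 without control 1. Rps19, required to mature the small-subunit RNA, had 10.95, 10.93 and 10.90 in NPFF and 10.55, 10.97 and 10.90 in control; controls 2 and 3 lay within or beside the NPFF range. The difference of 0.12 (SE 0.12) was -0.01 without control 1. Rps10, Rps24 and Rps7 differed by 0.06 (SE 0.09), -0.04 (SE 0.06) and 0.08 (SE 0.08), which became 0.01, -0.02 and 0.06 without control 1, and Rps26 was described above.

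Of the 6 listed ribosomal protein genes whose symbols fall outside the pattern, 5 were measured. Of these, 4 were higher in NPFF, with a median of 0.02 and a range of -0.02 to 0.12. Rpsa, a small-subunit protein also known as the laminin receptor, had 11.66, 11.76 and 11.67 in NPFF and 11.54, 11.52 and 11.66 in control, a difference of 0.12. Fau, whose product is cleaved to release a small-subunit protein, differed by 0.04, and Rps3a1 by -0.02; without control 1 these turned to -0.04 and 0.01.

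Other translation genes whose messengers carry TOP tracts were measured in 16 of 18 cases, with 10 higher, 6 lower, none past the test and a median difference of 0.04. Against control 3 alone, 7 of 16 were higher and the median was 0.00. Eef1d, an exchange factor of elongation, differed by 0.21 (SE 0.14), Eif4b, a helper of the initiation helicase, by 0.23 (SE 0.18) and Eif3h, of the initiation factor eIF3, by 0.13 (SE 0.11). Without control 1 these differences were 0.06, 0.02 and 0.02, and the list median was 0.01. In each of these 3 genes, named for their small p, control 1 was the lowest of the 6 arrays. The list did not share this throughout. Control 1 was also the lowest for Eif3k, Eif3f, Eef2 and Btf3, but it was the highest for Tpt1, Eef1a1 and Npm1.

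Regulators of TOP messengers in the mTORC1 pathway were higher in 10 of 12 cases, with a median of 0.12 and none past the test. Rheb, the small GTPase that activates mTORC1, had 10.51, 10.52 and 10.52 in NPFF and 10.13, 10.41 and 10.52 in control, a difference of 0.16 (SE 0.11). Tsc1 and Tsc2, whose complex restrains Rheb, differed by 0.26 (SE 0.18) and 0.11 (SE 0.08). An activator and its inhibitors thus stood on the same side of the mean of the 3 controls. Without control 1, Rheb, Tsc1 and Tsc2 each differed by 0.05, and the list median was -0.01. Against control 3 alone, Rheb differed by -0.0046, Tsc1 by 0.08 and Tsc2 by 0.08. There, 6 of the 12 genes were higher and the list median was 0.01.

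Among 8 genes of ribosomal protein transcription and ribosomal RNA synthesis, 6 were higher and 2 lower, with a median of 0.03 and none past the test. Myc, which drives transcription of ribosomal genes, had 8.53, 8.65 and 8.71 in NPFF and 8.77, 8.90 and 8.74 in control, all NPFF arrays lying below all controls, with a difference of -0.17 (SE 0.08) that was -0.19 without control 1. Ubtf, a factor of RNA polymerase I, had 9.57, 9.56 and 9.58 in NPFF and 8.89, 9.40 and 9.47 in control, a difference of 0.31 (SE 0.15), and Polr1a, the large subunit of that polymerase, differed by 0.20 (SE 0.11). Without control 1, Ubtf differed by 0.13 and Polr1a by 0.09, and the list median was 0.01. In this list 2 genes, Ubtf and Polr1b, were higher without overlap and 1, Myc, was lower. Over all genes, 3.67% were higher and 4.92% lower without overlap. Polr1b differed by 0.08 (SE 0.06), or by 0.10 without control 1. Gabpa, which binds the ETS box, differed by 0.01 (SE 0.06). Genes whose products escort ribosomal proteins or release subunits were higher in 7 of 10 cases, with a median of 0.13, or 0.05 without control 1, and none past the test. Bccip, Tsr2, the escort of Rps26, and Ltv1 led by p, with differences of 0.28 (SE 0.13), 0.26 (SE 0.13) and -0.14 (SE 0.08), which were 0.18, 0.11 and -0.08 without control 1.

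The 10 mitochondrially encoded transcripts measured, which are translated by mitochondrial ribosomes, were bright and close to equal between groups. Their mean level was 13.00 to 13.03 on NPFF arrays, and it ran from 12.88 to 13.22 on control arrays. Of these, 2 were higher and 8 lower in NPFF, with a median of -0.02, which turned to 0.04 without control 1. Control arrays were thus spread wider than NPFF arrays for this list too; ND3, ND4 and ND2 had differences of 0.06 (SE 0.06), -0.06 (SE 0.08) and -0.06 (SE 0.12), and 0.03, 0.01 and 0.06 without control 1.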

How the data were processed

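Per the labels' protocols, TRIZOL-extracted total RNA was biotin-labelled for Affymetrix arrays. The authors deposited log2 intensities per feature, read as log2 from their range of 4.59 to 14.0; for summarisation, normalization and build, the sources used here name none. GEO's platform annotation paired 23521 of 33794 features with 1 symbol, 1814 with several and 8459 with none. Sorted arrays departed from their mean by up to 0.17, so quantile normalization over all features was applied, and the brightest feature per symbol was kept, giving 22180 genes. NPFF was compared with control in limma 3.58.1, run in R 4.3.3: lmFit on group, eBayes moderation, two-sided p-values adjusted by Benjamini-Hochberg across the 22180 genes. The code was run on simulated data with an equal spread on all arrays, taken from the NPFF group. The wider spread of the control arrays was not simulated, so that run does not show how the approach performs with it. SE is the moderated standard error. Arrays carry no counting depth, and 3 per group limit the precision.

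Members, lists and tests were chosen with earlier results of these data known. Named genes were members whose groups did not overlap (up to 8 per direction by p), members with fixed roles, the 3 brightest and 3 dimmest, and up to 3 per further list by p. Rps13, Rpl37a, Rpl14, Rpl15, Rpl34, Rps18, Rpl13, Rps15, Rpl30, Rps16, Gabpa, Polr1b and the further features were named after their values were seen. So were Eif3k, Eif3f, Eef2, Btf3, Tpt1, Eef1a1 and Npm1. Deviations from group means correlated at 0.23, 0.45 and -0.33 between arrays of the same number, so numbers were not treated as pairs. Alternatives covered normalization, a filter on dim genes, features per gene, each array left out, control 3 alone, a replicate block, the variance model and array weights.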

Additional observations from a re-analysis of the deposited data

How the results depend on the processing

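Changes of setting are given on the log2 scale, NPFF minus control. REML array weights put control 3 at 22.6, control 2 at 0.382 and control 1 at 0.0773, so the weighted control mean lay almost wholly on control 3. With these weights, limma gave 1127 of 22180 genes and 3 of 63 members an adjusted p under 0.05, which are similar shares. The members were Rps13 (-0.27, adjusted p = 0.0279), Rpl37a (-0.19, 0.0414) and Rps23 (0.19, 0.0498). These calls thus rest mostly on a single control array. Every other setting with more than 1 control array gave 0 of each. In these settings, 235 to 2397 genes and 0 to 4 members had an unadjusted limma p under 0.05. They were out of 22180 genes and 63 members, or 16635 and 60 with the dimmest 25% of genes removed. Same-numbered arrays did not deviate together in every pair, so the replicate block treats numbers that the labels do not explain; with it 0 genes were called, 396 genes and 1 member had an unadjusted p under 0.05, and the median stayed at 0.06. Deposited values, median centring and cyclic loess gave member medians of 0.04 each, with 48, 48 and 44 members higher. Leaving out each array in turn gave 29 to 47 members higher and medians of -0.0066 to 0.1037 for members, -0.0083 to 0.0997 for the large subunit and -0.0032 to 0.1327 for the small subunit, and -0.0121 to 0.0293 for large minus small; each low end is without control 1, which turned the sign of 27 of 63 members. The sign of 28 members held without each single array. The genes listed from here on, for a range across 0 or a turned sign, come only from 31 members named by rule, not from all 63. Other members turned as well, Rpl34, Rpl30 and Rps16 among them, both without control 1 and against control 3 alone. Ranges that crossed 0 when arrays were left out were -0.0066 to 0.3134 for Rplp0, -0.1331 to 0.1546 for Rpl5, -0.0809 to 0.1663 for Rpl11, -0.1069 to 0.088 for Rpl17, -0.3322 to 0.0638 for Rpl39, -0.087 to 0.0219 for Rps6, -0.0347 to 0.0749 for Rpl3l, -0.0151 to 0.0601 for Rpl10l, -0.2871 to 0.132 for Rpl39l, -0.0559 to 0.0512 for Rps27l, -0.0502 to 0.1479 for Rps27, -0.0085 to 0.1999 for Rps19 and -0.0132 to 0.0279 for Rpl32l. Against control 3 alone, 23 members were higher, the medians were -0.0292 for members, -0.0296 for the large and -0.0165 for the small subunit, and large minus small was -0.0159; signs turned for Rplp0 (-0.0756), Rpl5 (-0.1788), Rpl11 (-0.0457), Rpl4 (-0.0374), Rpl39 (0.0053), Rps6 (0.0524), Rpl3l (-0.0248), Rpl39l (0.051), Rps27l (-0.0717), Rps4l (0.0218), Rpl3 (-0.0254), Rps4x (-0.0456) and Rps10 (-0.0098). With REML weights 23 members were higher, the medians were -0.025, -0.0304 and -0.0176 in the same order, and large minus small was -0.0172; signs turned for Rplp0 (-0.0516), Rpl5 (-0.176), Rpl11 (-0.0868), Rpl4 (-0.0305), Rpl39 (0.0128), Rps6 (0.0484), Rpl3l (-0.0304), Rpl39l (0.0566), Rps27l (-0.0765), Rps4l (0.0262), Rpl3 (-0.0098), Rps4x (-0.0319) and Rps10 (-0.0176). With gene-by-gene weights 31 were higher, the medians were -0.0019, -0.0021 and 1e-04, and large minus small was -0.0124; signs turned for Rplp0 (-0.0019), Rpl5 (-0.1349), Rpl11 (-0.0875), Rpl39 (0.0152), Rps6 (0.0277), Rpl3l (-0.027), Rpl39l (0.0701), Rps27l (-0.061) and Rps10 (-0.0028). Averaging a gene's features turned large minus small (-0.009), Rplp1 (-0.0225) and Rpl4 (-0.0358), and cyclic loess turned Rps27l (-0.0064). The cause of these changes was not tested. Removing the dimmest 25% of genes left 60 members. Bright features may be compressed and dim ones lie near background, and the files used here give no detection call for either.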
